A study of Mus musculus with 20 samples.

Results

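Genes of the cytosolic ribosomal proteins and their pseudogenes were followed in mouse plantaris tendon during growth, with and without the recombinase that targets Igf1r, the gene of the IGF1 receptor. They were taken by name: symbols that begin with Rpl or Rps and go on with a number, P and a number, or a, leaving out the Rps6k kinases. This took 220 of the 24885 genes counted. Of these, 77 are the canonical proteins of the ribosome (46 of the large subunit, including the 3 P stalk proteins, and 31 of the small subunit). Another 8 are paralogs of canonical genes, 5 are further copies that GENCODE lists as pseudogenes (Rpl6l, Rpl32l, Rpl37rt, Rps3a2 and Rps3a3), and Rps19bp1 is not a ribosomal protein and was counted apart. The remaining 129 have -ps in their names, which mark them as pseudogenes of 52 parent genes, although GENCODE lists 3 of them (Rpl10-ps3, Rpl36a-ps1 and Rpl9-ps6) as protein coding. All of the parents were measured, and Rpl31 has the most named copies, 9. Enough counts for testing were found for 120 members, which comprise all 77 canonical genes, all 8 paralogs, 33 pseudogenes, 1 further copy and Rps19bp1. The other 96 pseudogenes and 4 further copies have too few counts to be tested. Fau, whose ribosomal protein is made fused to a ubiquitin-like protein, does not match the names and is given beside the stalk.

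Every mouse carried Igf1r alleles flanked by lox sites (IGF1Rflox/flox), and there were 4 libraries in each of 5 groups. WT day 0 mice were ScxCreERT2-/- and received neither tamoxifen nor a growth stimulus. WT day 7 and WT day 14 mice were ScxCreERT2-/- with tamoxifen and the growth stimulus for 7 or 14 days. KO day 7 and KO day 14 mice were ScxCreERT2+/+ with the same treatment. The recombinase is driven by Scx, which encodes a tenocyte transcription factor, so cells of the tendon that do not express Scx are not targeted. A KO group without the stimulus was not analysed here, and day 0 differs from the later days in tamoxifen as well as in the stimulus. Nothing in the labels ties each replicate to its own animal. The p-values therefore reflect how far these libraries differ, and that may be technical variation. Library depth ranged from 32.3 M to 63.5 M counts.

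The ribosome is built from a small subunit, which reads the mRNA, and a large subunit, which joins the amino acids. Each subunit holds 1 copy of most of its proteins, and the acidic P stalk of the large subunit recruits the elongation factors. Mammalian ribosomal protein mRNAs begin with a run of pyrimidines, the TOP motif, through which mTOR signalling, itself downstream of the IGF1 receptor, controls their translation. These short, abundant mRNAs have been copied back into the genome many times, so that each gene has intronless processed pseudogenes of nearly its own sequence.

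Of the 129 pseudogenes, 127 aligned to the parent's transcript over 100 bases or more, with a median identity of 98.3%, from 87.8% to 100%, and 7 matched over their whole length with no mismatch or gap. The other two, Rpl18-ps1 and Rps7-ps2, aligned to the gene they are named after over 16 and 15 bases. The sequences below show how closely a copy can follow its parent. They are from GENCODE vM21 transcripts (GRCm38) and give 60 bases of coding sequence, with the differing bases in capitals. Each stretch was picked as the one aligned without gaps that has the most differing bases. The first pair is Rpl3, a core protein of the large subunit, and its pseudogene Rpl3-ps1, which differ in 2 of 1210 bases, 1 of them in this stretch. The second is Rpl3 and Rpl3l, its paralog in muscle, which differ at 20 of 60 positions. Over all 1172 aligned bases Rpl3l and Rpl3 are 77.1% identical. The third is Rpl29 and Gm8210, a pseudogene whose name does not match the ribosomal pattern.
Rpl3: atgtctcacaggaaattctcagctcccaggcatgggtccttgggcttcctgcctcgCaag
Rpl3-ps1: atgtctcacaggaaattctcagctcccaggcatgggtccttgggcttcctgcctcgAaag
Rpl3: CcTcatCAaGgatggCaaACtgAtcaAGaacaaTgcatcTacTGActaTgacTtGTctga
Rpl3l: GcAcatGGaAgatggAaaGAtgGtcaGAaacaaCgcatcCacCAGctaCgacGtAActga
Rpl29: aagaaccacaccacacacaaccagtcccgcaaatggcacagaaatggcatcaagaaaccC
Gm8210: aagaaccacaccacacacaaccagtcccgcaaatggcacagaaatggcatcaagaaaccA

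Likeness of this degree bears on what a count can show. Over the canonical genes, the share of 50-base words of the transcript that occur in no other gene's transcript had a median of 48.3% and was lowest in Rps27, at 1.35%. Levels per kb of transcript differed 1082-fold between the lowest and the highest canonical gene, although the proteins are used in nearly equal numbers. Rpl23a, a large-subunit protein near the exit of the nascent chain, stood at 0.571 CPM per kb and Rps6, the phosphorylated small-subunit protein, at 1.78. Rplp1, of the stalk, stood at 617 CPM per kb. Across the 77 genes, the mean level per kb and the share of unique words had a Spearman rho of 0.42 with 50-base words and of 0.58 with 100-base words. This is across genes of the same libraries and is given as a description. For each gene 1 transcript was used, the longest protein-coding one at its best principal level in GENCODE. Some of these are long, such as Rps15a at 5179 bases (93.6% unique 50-base words) and Rps20 at 3706 (92.4%). A longer transcript gives a lower level per kb for the same counts, so levels per kb and shares of unique words rest on this choice. The 20 genes with under 25% unique words had a median of 19.9 CPM per kb, and the 9 genes with 75% or more a median of 91.5. How reads that match several copies were counted is not given in the sources used here, so the level of a single member is uncertain where it shares sequence.

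**Figure D1:**
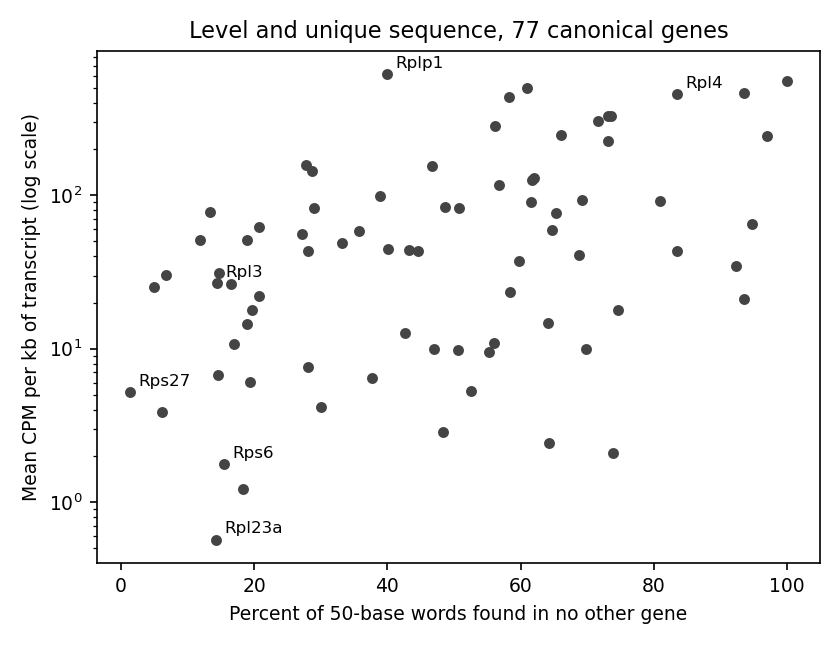
Mean level per kb of transcript (CPM per kb, log axis) against the percent of 50-base words found in no other gene, for the 77 canonical genes; each point is 1 gene. The lowest gene, Rpl23a, has 14.3% unique words, and Rps27, at the left, has 1.35%.

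The tissue was checked by its markers. All 9 tendon markers were detected in every group, with summed levels of 37090 to 44620 CPM at WT day 0, 45256 to 56423 at WT day 7, 85203 to 105364 at KO day 7, 57471 to 143722 at WT day 14 and 118395 to 131646 at KO day 14. The KO day 7 libraries were all above those of WT day 7. Igf1r, the targeted gene, was not lower in the libraries labelled KO (log2 difference 0.06 ± 0.08 at day 7, edgeR adjusted p = 0.646, and 0.23 ± 0.08 at day 14, adjusted p = 0.162). Counts summed over all exons cannot tell whether 1 of them was lost. Scx was higher in KO by 3.87 ± 0.30 on the log2 scale at day 7 (edgeR adjusted p = 3.83e-07). It is 1 of the 9 tendon markers and drives the recombinase that only KO mice carry. Its rise therefore cannot be told apart from the genotype itself.

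Ribosomal protein genes as a group took a larger share of the counts at WT day 7 than at WT day 0. The 90 genes without -ps held 0.726%, 0.804%, 0.663% and 0.659% of all counts in the WT day 0 libraries. They held 0.928%, 0.982%, 0.904% and 0.865% in the WT day 7 libraries, all above day 0. The KO day 7 libraries, at 0.797%, 0.748%, 0.702% and 0.663%, were all below WT day 7. The WT day 14 libraries spread widely, at 0.997%, 0.719%, 0.781% and 0.631%. The KO day 14 libraries stood at 0.552%, 0.627%, 0.623% and 0.606%, all below those of WT. The means were 0.713% ± 0.068 at WT day 0 and 0.919% ± 0.049 at WT day 7, a ratio of 1.29 (SD, n = 4). KO was lower than WT by a ratio of 0.791 at day 7, where its mean was 0.728% ± 0.058, and of 0.770 at day 14, where the means were 0.602% ± 0.035 in KO and 0.782% ± 0.156 in WT. The highest KO day 14 library, 0.627%, was just below the lowest of WT, 0.631%. WT day 14 overlapped with both other WT groups. As a sum over the members, the share is given with no test. When the shares were taken of the TMM-scaled library sizes, the difference was 0.101 percentage points for WT day 7 and day 0 and -0.0903 for KO and WT at day 7, against 0.207 and -0.192 of the plain totals. At day 14 the difference of KO and WT was -0.129 in place of -0.180. On leaving out 1 library it ran from -0.108, without WT day 14 replicate 1, to -0.230, without WT day 14 replicate 4.

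**Figure D2:**
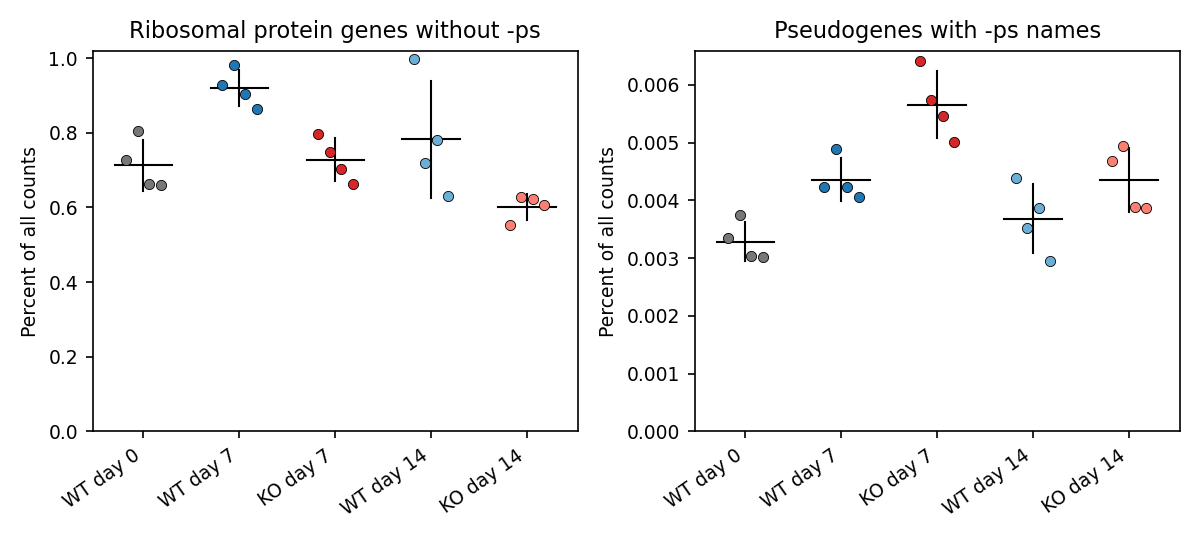
Percent of all counts held by the 90 ribosomal protein genes without -ps (left) and by the 129 pseudogenes (right) in each of 20 libraries; points are libraries, horizontal lines group means and vertical lines 1 SD. On the left the WT day 7 points lie above those of WT day 0 and of KO day 7, and on the right the KO day 7 mean, 0.00566%, is above the WT day 7 mean, 0.00436%, but below it without Rpl3-ps1 (0.00339% and 0.00432%).

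In WT tendon, the canonical genes that passed the test at day 7 were nearly all higher than at day 0. Of the 77 canonical genes 36 rose from WT day 0 to WT day 7 and 1 fell, at an edgeR p below 0.05 after Benjamini-Hochberg adjustment, with a median log2 change of 0.29 against 0.02 over all genes tested. Over all 18918 genes tested 32.3% rose and 31.8% fell, 64.1% together. The canonical genes thus rose in 46.8% of cases and fell in 1.30%. At WT day 14 against day 0, 31 rose and 1 fell with a median of 0.23, where 28.0% of all genes rose and 26.2% fell, 54.3% together. Both comparisons share the day 0 libraries. From WT day 7 to WT day 14, 0 canonical genes rose and 3 fell (16.0% and 14.3% of all genes, 30.4% together), with a median of -0.03. At an unadjusted p below 0.05, 1 was higher and 6 were lower, beside 21.5% and 19.0% of all genes. Of the 86 tested genes without -ps, 1 rose and 4 fell with edgeR, 1 and 5 with DESeq2 (17.6% and 15.7% of all genes) and 1 and 4 with limma-voom (14.9% and 14.8%). Without WT day 14 replicate 1, 1 rose and 12 fell (15.2% and 12.2%).

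**Figure D3:**
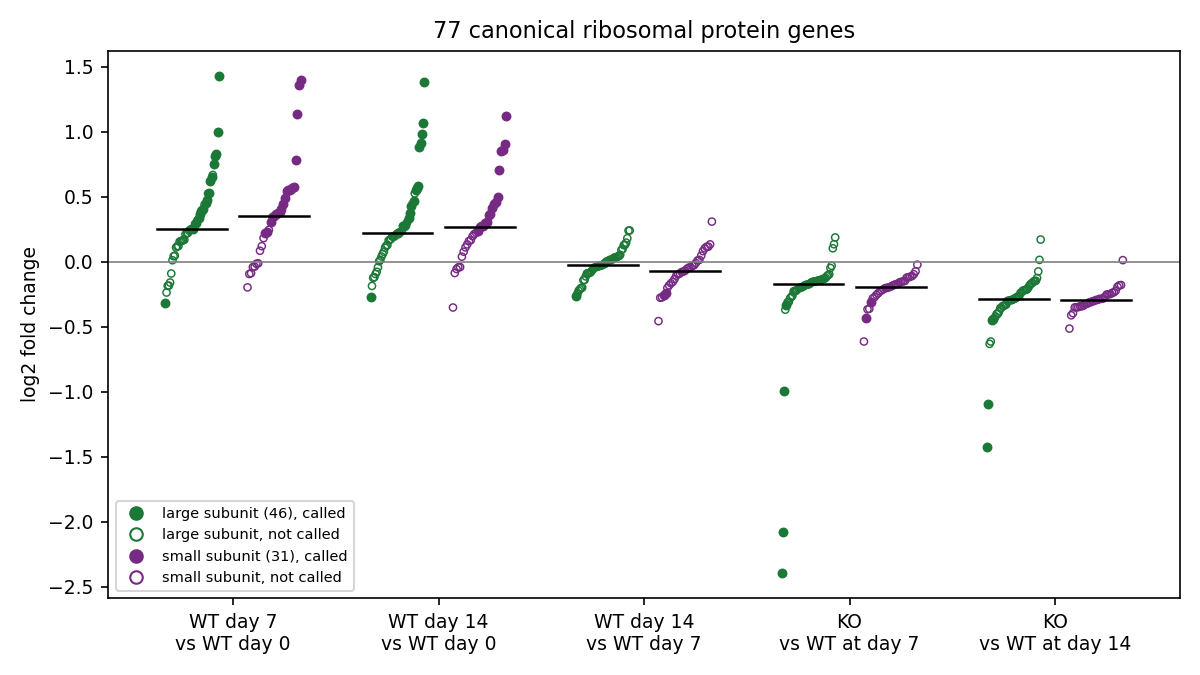
Log2 fold change of the 77 canonical genes in 5 comparisons, large subunit (46, stalk included) in green and small subunit (31) in purple; filled points passed the edgeR threshold and black lines are medians. The points lie mostly above 0 in both comparisons of WT with day 0 and mostly below 0 in both comparisons of KO with WT, where 74 of 77 were below 0 at each day.

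Of the small subunit, 19 of 31 genes rose at WT day 7 and 0 fell, where 32.3% of all genes rose, and its lowest log2 change was -0.20, in Rps27. Rps2, which sits at the mRNA entry channel, rose from 127 ± 6.7 to 188 ± 17 CPM (SD, n = 4; log2 change 0.57 ± 0.08 SE, edgeR adjusted p = 9.15e-06). Rps26, at the mRNA exit, rose from 68.3 ± 6.0 to 102 ± 5.3 CPM (0.58 ± 0.09, adjusted p = 1.53e-05). Larger changes were found in genes of low count, which are named here after their values were seen. Rps6, the substrate of the S6 kinases, had 45, 51, 18 and 33 counts in the WT day 0 libraries and 141, 127, 111 and 138 at WT day 7, a log2 change of 1.4 ± 0.26 (edgeR adjusted p = 9.2e-05, and 0.0897 with the score of muscle markers described below as covariate). Rps29 changed by 1.36 ± 0.22 and Rps23, of the decoding centre, by 1.13 ± 0.21. At WT day 14, 16 of the 31 rose, where 28.0% of all genes rose.

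Of the large subunit without the stalk, 15 of 43 genes rose at WT day 7 and 1 fell, and 13 rose at WT day 14. The shares that rose were near those of all genes, 32.3% and 28.0%. Rpl41, the shortest ribosomal protein, had 109, 98.2, 91.5 and 97.5 CPM in the WT day 0 libraries and 198, 214, 191 and 190 CPM at WT day 7. The WT day 14 libraries had 242, 176, 192 and 173 CPM. All growing WT libraries were above all of day 0, by 1.0 ± 0.10 on the log2 scale at day 7 (edgeR adjusted p = 9.06e-08) and 0.98 ± 0.10 at day 14. Rpl27 rose from 3.58 ± 0.63 to 9.64 ± 1.05 CPM at day 7 (log2 1.43 ± 0.16) and Rpl10a from 23.2 ± 1.9 to 41.1 ± 4.8 CPM (0.83 ± 0.11, and 0.473 with the muscle score as covariate, edgeR adjusted p = 0.0803). Rpl10a rose further from day 0 at day 14, by 1.07 ± 0.11, but day 14 did not differ from day 7 past the threshold (0.24 ± 0.11, adjusted p = 0.113). At WT day 14 the highest ranked also included Rpl31 at 0.91 ± 0.14, Rpl12 at 0.88 ± 0.15 and Rpl13a at 0.58 ± 0.11, the last also part of an interferon-induced complex that represses translation.

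Rpl22, a large-subunit protein that general translation can do without, was the canonical gene that fell, from 160 ± 9.9 CPM at WT day 0 to 128 ± 9.8 at WT day 7 (log2 -0.31 ± 0.09, edgeR adjusted p = 0.00495, and -0.273 with the muscle score as covariate, adjusted p = 0.267). Its paralog Rpl22l1, whose mRNA the Rpl22 protein is known to repress, had 18.1, 19.2, 18.1 and 16.6 CPM at WT day 0 and 31.7, 31.4, 27.8 and 29.1 CPM at WT day 7. None of these libraries overlapped, and Rpl22l1 rose by 0.74 ± 0.11 (adjusted p = 1.23e-05). At WT day 14 Rpl22l1 was still higher by 0.72 ± 0.11, and Rpl22 at -0.19 ± 0.09 did not pass (adjusted p = 0.0876), though it did without WT day 14 replicate 1 (-0.30).

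Of the P stalk, Rplp0, its base, rose from 448 ± 16 CPM at WT day 0 to 648 ± 23 at day 7 and 657 ± 83 at day 14 (log2 0.53 ± 0.08 and 0.55 ± 0.08). Rplp1 rose by 0.25 ± 0.10 and 0.29 ± 0.10. Rplp2, its partner in the stalk dimer, stood at -0.18 ± 0.11 at day 7 (edgeR adjusted p = 0.136) and fell by 0.27 at day 14 (SE 0.11, adjusted p = 0.035), with overlapping libraries. That day 14 call was lost without any 1 of WT day 0 replicates 1, 2 and 3 and WT day 14 replicates 2 and 3, with adjusted p from 0.0507 to 0.144, and with the muscle score as covariate (-0.286, adjusted p = 0.0703). Rack1, a scaffold for protein kinase C on the small subunit, rose from 571 ± 31 to 849 ± 38 CPM at day 7 (0.57 ± 0.09). The fusion gene Fau rose by 0.54 ± 0.16.

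Of the 8 paralogs, 5 rose and 1 fell at WT day 7, where 32.3% of all genes rose and 31.8% fell. At WT day 14, 6 rose and 1 fell, where 28.0% of all genes rose and 26.2% fell. At day 7 Rps4l rose from 14.9 ± 0.99 to 27.9 ± 3.8 CPM (log2 0.90 ± 0.13), while its canonical partner Rps4x stood at -0.01 ± 0.09. GENCODE lists Rps4l as a transcribed pseudogene. Rpl36al rose by 1.05 ± 0.22, Rpl39l by 0.90 ± 0.24 and Rpl7l1 by 0.46 ± 0.11. Their partners did not pass: Rpl36a stood at 0.25 ± 0.17, Rpl39 at 0.32 ± 0.15 and Rpl7 at 0.17 ± 0.09. Rps27l, a p53 target, stood at 0.24 ± 0.13, Rps27 at -0.20 ± 0.19 and Rps27rt at 0.37 ± 0.31, and none of these passed. The difference between a paralog and its partner was not tested. Rps4l then fell from WT day 7 to WT day 14 by 0.42 on the log2 scale (SE 0.13, adjusted p = 0.0162).

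Rpl3l replaces Rpl3 in the ribosomes of skeletal and heart muscle. Its level was 147, 95.2, 193 and 230 CPM in the WT day 0 libraries and 0.722, 1.03, 0.442 and 0.570 CPM at WT day 7. It was 6.95, 3.95, 5.85 and 5.67 CPM at KO day 7, 15.9, 4.53, 5.93 and 26.4 CPM at WT day 14, and 13.6, 21.5, 3.24 and 32.9 CPM at KO day 14. WT day 7 was the lowest group, with no library in reach of another group's. The log2 change was -7.90 ± 0.78 from WT day 0 to day 7 (edgeR adjusted p = 2.37e-07), 4.24 ± 0.71 from WT day 7 to day 14, and 3.01 ± 0.70 for KO against WT at day 7 (adjusted p = 0.0108). At day 14 KO and WT overlapped (0.44 ± 0.57, adjusted p = 0.759). The summed level of 14 muscle fibre markers moved with it, and ran from 24938 to 63916 CPM at WT day 0, 190 to 1533 at WT day 7, 4706 to 11824 at KO day 7, 2650 to 21629 at WT day 14 and 1483 to 24866 at KO day 14. Single markers differed: from WT day 0 to day 14, 7 fell, 1 rose and 6 did not pass. Of all genes, 26.2% fell and 28.0% rose in that comparison. With a muscle score, the mean log2 CPM of these markers in each library, as covariate, the change from WT day 0 to day 7 was -3.67 and the KO difference at day 7 was 0.861 (edgeR adjusted p = 0.127). The WT day 7 range of the summed markers overlapped with neither that of WT day 0 nor that of KO day 7. In those comparisons this covariate cannot separate muscle from group. Whether muscle accounts for a call lost with the covariate was not tested. In such bulk samples, fewer cells of a type and less RNA per cell cannot be told apart.

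**Figure D4:**
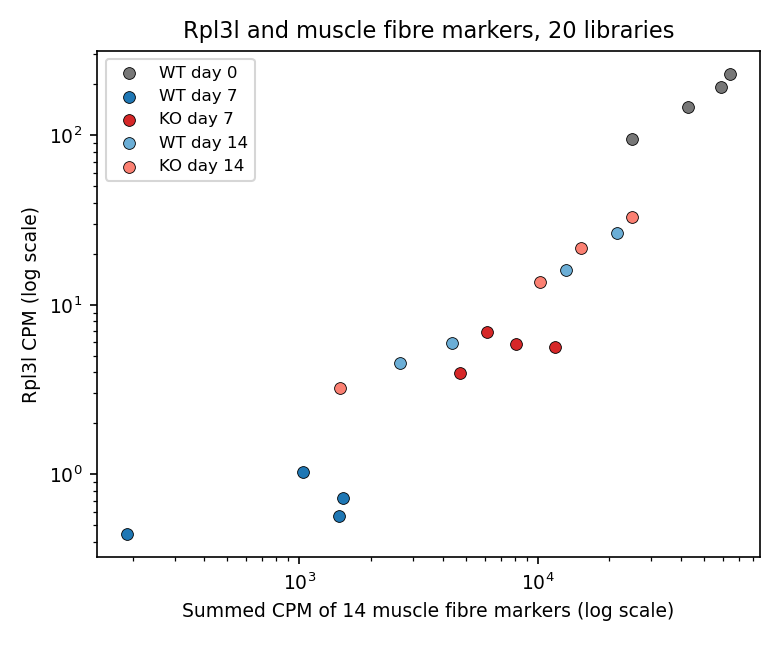
Rpl3l (CPM, log axis) against the summed CPM of 14 skeletal muscle fibre markers (log axis) in 20 libraries; each point is 1 library, coloured by group. The WT day 0 libraries lie at the upper right, with Rpl3l between 95.2 and 230 CPM, and the WT day 7 libraries at the lower left.

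Other genes moved with the canonical ones between WT day 0 and day 7. The muscle markers fell in 13 of 14 cases, all 8 markers of proliferating cells, all 10 of macrophages and all 5 of neutrophils rose, and all 6 of adipocytes fell. Of 6 endothelial markers 3 fell, and of 9 tendon markers 2 rose and 3 fell. Over all genes tested in the same comparison, 32.3% rose and 31.8% fell. With the muscle score as covariate, 11 ribosomal protein genes without -ps rose and 1 fell, against 41 and 2 without it, while 16.2% of all genes rose and 15.0% fell, and the median of the canonical genes was 0.18. As the summed muscle markers did not overlap between WT day 0 and day 7, muscle and group cannot be told apart by this covariate. The part of proliferating cells, macrophages and neutrophils in the rise was not tested. With library totals alone in place of TMM scaling, the median of all genes moved to 0.20 and that of the canonical genes to 0.46.

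Genes outside the ribosome give a setting for these values, again beside the 32.3% of all genes that rose and 31.8% that fell. Of 21 translation genes whose mRNAs also carry TOP motifs, 11 rose and 3 fell at WT day 7, with Npm1, a nucleolar chaperone, at 1.18 ± 0.11, the poly(A) binding protein Pabpc1 at 0.93 ± 0.10 and Eef1b2 at 0.70 ± 0.09, while the helicase cofactor Eif4b fell by 0.58. Mitochondrial ribosomal proteins, which serve a separate ribosome, rose in 14 and fell in 22 of 78 cases, with a median of -0.08. Mrpl52 rose by 0.81 and Mrpl42 stood at -1.14. Of 8 snoRNA host genes 3 rose and 1 fell, among them Snhg1 at 0.79 and Snhg6 at 0.66. Of 7 chaperones of single ribosomal proteins, Ltv1 rose by 0.63 and Tsr2, the escort of Rps26, fell by 0.48. Of 15 regulators of ribosomal protein supply 3 rose and 7 fell: Myc rose by 1.55 ± 0.24, the RNA polymerase III repressor Maf1 stood at -0.97 ± 0.09, the translation repressor Eif4ebp2 at -1.54 ± 0.20 and Mtor at -0.51 ± 0.10.

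In KO tendon at day 7, 6 canonical genes fell against WT and 0 rose, where 5.42% of all genes fell and 9.39% rose, 14.8% together. The median over the 77 was -0.18, against -0.01 over all genes tested, and 74 of the 77 values were below 0. At an unadjusted p below 0.05, 17 were lower and 0 higher, beside 13.6% and 16.9% of all genes. Among the 86 tested genes without -ps, DESeq2 placed 8 lower and 1 higher (8.05% and 12.2% of all genes) and limma-voom 7 lower and 0 higher (6.94% and 9.20%). The share of canonical genes called lower was 7.79%. At day 14, 4 fell and 0 rose, where 0.719% of all genes fell and 1.06% rose, 1.78% together. The median was -0.29 and again 74 of 77 values were below 0. At an unadjusted p below 0.05, 55 were lower and 0 higher, beside 8.61% and 8.07% of all genes. Among the genes without -ps, DESeq2 placed 11 lower (1.56% of all genes lower, 2.46% higher) and limma-voom 2 (0.497% and 0.803%), and neither placed any higher. This count depended on single libraries: without WT day 14 replicate 4, 41 of the genes without -ps fell and 0 rose (4.20% and 4.40% of all genes), and without WT day 14 replicate 1, 0 passed (0.319% lower and 0.463% higher of all genes). The muscle markers were higher in KO at day 7 in 12 of 14 cases. With the muscle score as covariate 2 genes fell at day 7, where 1.30% of all genes fell and 4.17% rose, and 4 at day 14, where 0.788% fell and 1.28% rose. As the summed muscle markers of KO and WT did not overlap at day 7, muscle and genotype cannot be told apart by this covariate there. Of the 9 tendon markers, 5 rose in KO at day 7 with a median of 0.83, and 1 rose at day 14. Scx is among the 5 at day 7, and its rise cannot be told apart from the genotype, as said above. The part of the tendon markers in the lower ribosomal values was not tested. With library totals alone the median of all genes moved to -0.18 at day 7 and -0.13 at day 14 and that of the canonical genes to -0.35 and -0.39.

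The difference between the KO effects at day 14 and day 7 passed for 0 of the 77 canonical genes with edgeR (background 0%), and DESeq2 and limma-voom called 0 of the 86 genes without -ps, where DESeq2 placed 0.498% of all genes higher and 0.787% lower and limma-voom 0%. At an unadjusted p below 0.05 it was higher for 2 and lower for 1, beside 4.27% and 6.51% of all genes. From KO day 7 to KO day 14, 1 canonical gene rose and 4 fell (7.09% and 8.57% of all genes, 15.7% together), among them Rpsa, the laminin-binding protein of the small subunit, at -0.35 ± 0.09 and Rpl8, of the peptidyl transferase region, at -0.27 ± 0.09. Against WT day 0, 18 canonical genes rose and 6 fell at KO day 7 (29.4% and 28.3% of all genes, 57.7% together), and 10 rose and 15 fell at KO day 14 (25.4% and 25.0%, 50.3% together). Rpl41, Rpl27, Rpl10a and Rplp0 were among the risers at both KO days, at 0.85, 1.17, 0.69 and 0.48 at day 7 and 0.65, 0.77, 0.62 and 0.36 at day 14. These comparisons share WT day 0 and differ in genotype, tamoxifen and stimulus together.

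Rpl3 had the lowest log2 difference of the canonical genes in KO at both days, and its pseudogene stood opposite. Rpl3 (ENSMUSG00000060036, chr15:80077791-80091868, minus strand) had 56.8, 62.4, 57.9 and 58.7 CPM in the WT day 7 libraries and 12.1, 10.9, 11.5 and 10.3 CPM in those of KO. At day 14 WT had 57.3, 54.7, 54.1 and 47.6 CPM and KO 8.09, 10.6, 30.8 and 30.0 CPM. All KO libraries were below all WT libraries of the same day, and KO day 14 replicates 3 and 4 stood nearer to WT than replicates 1 and 2. The log2 difference was -2.40 ± 0.31 at day 7 (edgeR adjusted p = 0.000136). At day 14 it was -1.42 ± 0.30 (edgeR adjusted p = 0.0207), a call that was lost without any 1 of WT day 14 replicates 1, 2 and 3 and KO day 14 replicate 2, with adjusted p from 0.0506 to 0.0627. A fit to the compared groups alone also lost this call (edgeR adjusted p = 0.321).

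Rpl3-ps1 (ENSMUSG00000084349, chrX:13202571-13203780, plus strand) had between 0.146 and 0.459 CPM in the 12 WT libraries. In KO it had 24.7, 23.5, 22.0 and 20.5 CPM at day 7 and 18.8, 20.3, 10.8 and 9.64 CPM at day 14. It was higher in every KO library than in any WT library, by 6.04 ± 0.29 on the log2 scale at day 7 (edgeR adjusted p = 7.42e-11) and by 5.47 ± 0.29 at day 14 (adjusted p = 5.45e-10). The 2 KO day 14 libraries with less of the pseudogene are those with more Rpl3. The log2 ratio of pseudogene to parent counts was 8.44 higher in KO at day 7 and 7.04 at day 14 (two-sided exact permutation p = 0.0286 each, the smallest that 4 against 4 libraries can give, adjusted 0.0457 over 8 comparisons). Rpl3 and Rpl3-ps1 were tested as a pair because the pseudogene was called in these libraries, so this p restates that call. The sum of both was 33.8 ± 2.43 CPM in KO and 59.3 ± 2.37 in WT at day 7, and 34.8 ± 7.02 and 53.8 ± 4.11 at day 14 (SD, n = 4; exact permutation p = 0.0286 each, adjusted 0.0571). As the copies printed above differ at 2 bases, counts do not tell which of them a read came from. Rpl3 lies 3.62 Mb from Scx on chromosome 15. Rpl8, 0.445 Mb from Scx, was not called in KO at either day. Whether position near Scx bears on the Rpl3 values was not tested.

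Other processed pseudogenes that share sequence with canonical genes were examined after these values had been seen, so no p-value is given for their pairs. The adjustment over 8 comparisons above includes such pairs, Gm8210 with Rpl29 and Gm6472 with Rps7. In all, 223 whose names do not match the pattern share at least 50 words of 50 bases with 57 canonical genes, and 52 of them had enough counts for testing. At day 7, 2 were called, both higher in KO, where 14.8% of all genes passed. At day 14, 2 were called, Gm6472 higher and Gm11478, a copy of Rpl13a, lower, where 1.78% of all genes passed. The copies higher at day 7 were Gm8210, a copy of Rpl29 on chromosome 1, and Gm6472, a copy of Rps7 on chromosome X, which are 99.4% identical to their parents. Gm8210 had 0 to 2 counts in each WT library and passed the count filter only through KO. The only call open to Gm8210 was therefore higher in KO.

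Rpl29, which binds heparan sulfate as well as the ribosome, had 48.1, 54.6, 51.5 and 50.9 CPM in WT and 8.56, 7.53, 6.65 and 25.6 CPM in KO at day 7. The log2 difference was -2.08 ± 0.44 (edgeR adjusted p = 0.00652, and 0.0683 with the muscle score as covariate). At day 14 the WT libraries had 58.9, 41.8, 50.3 and 42.6 CPM and those of KO 35.7, 39.6, 41.9 and 7.88 CPM. Only KO day 14 replicate 4 was then as low as the KO day 7 libraries, and the difference did not pass. Gm8210 had 0, 1, 2 and 0 counts in the WT day 7 libraries and 159, 85, 121 and 60 in those of KO. At day 14 it had 0, 1, 0 and 0 counts in WT and 0, 1, 0 and 104 in KO. The library with Gm8210 counts at KO day 14 is the 1 with low Rpl29. The sum of both copies was 14.0 ± 8.42 CPM in KO and 51.3 ± 2.64 in WT at day 7, so the counts of Gm8210 are fewer than those by which Rpl29 was lower. Rpl29 rose from KO day 7 to KO day 14 by 1.37 ± 0.44 (edgeR adjusted p = 0.0435). This call was lost without any 1 of replicates 1, 2 and 3 of either KO group, with adjusted p from 0.0968 to 0.127. A fit to the compared groups alone (edgeR adjusted p = 0.19), no filter (0.0646), a replicate block (0.077) and limma-voom (adjusted p = 0.0582) also lost this call.

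**Figure D5:**
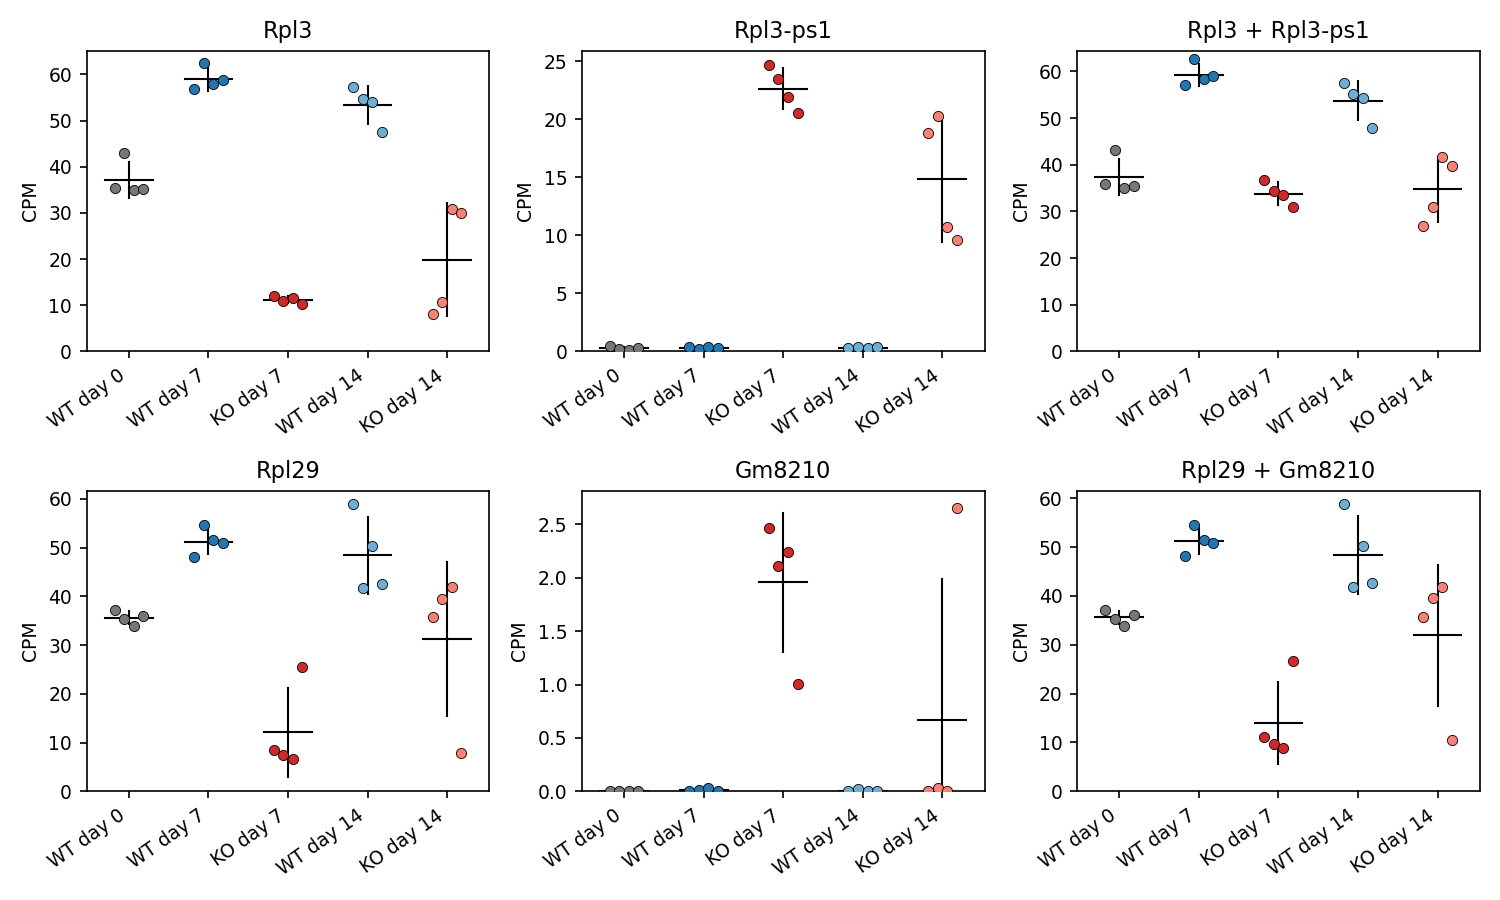
CPM per library of Rpl3 and Rpl29 (left), their pseudogenes Rpl3-ps1 and Gm8210 (middle, on their own scales) and the sums (right); points are libraries, horizontal lines means and vertical lines 1 SD. In KO the parents are low where the pseudogenes are high, and at KO day 14 the libraries of each group divide in the same way for parent and copy.

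Rps7, a small-subunit protein that also binds Mdm2, had 50.5, 54.9, 47.3 and 48.6 CPM in WT and 41.4, 40.6, 39.8 and 40.9 CPM in KO at day 7 (log2 -0.31 ± 0.09, edgeR adjusted p = 0.028). Gm6472 had 1.86, 1.61, 2.03 and 2.05 CPM in WT and 19.6, 36.6, 32.8 and 19.3 CPM in KO at day 7. At day 14 the KO libraries had 30.9, 31.3, 1.93 and 16.7 CPM, of which replicate 3 lay within the range of WT, 1.13 to 3.19. Here the sum was higher in KO at day 7, at 67.8 ± 8.47 CPM against 52.2 ± 3.14 in WT. The order of the sums was thus opposite to that of Rpl3 and Rpl29.

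Rpl35a, of the large subunit, had 53.0, 52.6, 50.3 and 51.0 CPM in WT and 33.9, 21.0, 18.7 and 30.0 CPM in KO at day 7. At day 14 it had 79.0, 46.5, 53.2 and 41.8 CPM in WT and 16.7, 31.9, 21.4 and 33.1 CPM in KO. The groups did not overlap at either day, and the log2 difference was -1.0 ± 0.22 at day 7 (edgeR adjusted p = 0.00812) and -1.09 ± 0.23 at day 14 (edgeR adjusted p = 0.0182). The day 14 call was lost without any 1 of WT day 14 replicate 1 and KO day 14 replicates 1 and 3, with adjusted p from 0.0565 to 0.0721. A fit to the compared groups alone also lost this call (edgeR adjusted p = 0.186). The processed pseudogenes outside the pattern that share words with Rpl35a, Gm10247 and Gm12778, had too few counts to be tested.

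The other calls in KO were small and were lost on leaving out 1 library, whichever of several was left out. At day 7 Rpl11, which like Rps7 binds Mdm2, stood at -0.34 ± 0.11 (edgeR adjusted p = 0.043) and the ubiquitin fusion Rps27a at -0.44 ± 0.14 (adjusted p = 0.0431). Both calls were lost without any 1 of the 8 libraries compared, with differences of -0.288 to -0.356 for Rpl11 and -0.337 to -0.470 for Rps27a, and that of Rps7 without any 1 of WT day 7 replicates 1, 2 and 4 and KO day 7 replicates 2, 3 and 4, with adjusted p from 0.0509 to 0.16. With the muscle score as covariate the differences of Rpl11, Rps27a and Rps7 were -0.246, -0.382 and -0.221, and none passed (edgeR adjusted p from 0.254 to 0.345). At day 14 Rpl13 stood at -0.44 ± 0.11 (adjusted p = 0.0474) and Rpl10a at -0.44 ± 0.11 (adjusted p = 0.0478). Both were lost without any 1 of WT day 14 replicates 1, 2 and 3 and KO day 14 replicates 1, 2 and 4, with adjusted p from 0.0649 to 0.178. A fit to the compared groups alone also lost both (edgeR adjusted p = 0.281 for Rpl13 and 0.222 for Rpl10a). The stalk did not pass at either day: Rplp0 stood at -0.05 ± 0.08 and -0.19 ± 0.08, Rplp1 at -0.13 ± 0.10 and -0.30 ± 0.10, and Rplp2 at 0.13 ± 0.11 and -0.07 ± 0.11. Rack1 stood at -0.20 ± 0.09 and -0.21 ± 0.09, and Fau at -0.17 ± 0.16 and -0.56 ± 0.16, and neither passed. Of the paralogs, Rpl3l was the 1 called at day 7, where 14.8% of all genes passed, and Rpl22l1 stood at -0.24 ± 0.11 and -0.23 ± 0.11. At day 14, 0 of 8 were called, where 1.78% of all genes passed. At an unadjusted p below 0.05, 3 were lower, beside 8.61% of all genes, with Rpl36al at -0.78 ± 0.22 (edgeR adjusted p = 0.084).

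Beside these, the lists outside the ribosome are set against 5.42% of all genes lower in KO and 9.39% higher at day 7. At day 14 the shares of all genes were 0.719% and 1.06%. Of the 21 translation genes with TOP mRNAs, 3 fell in KO at day 7 and 0 passed with edgeR at day 14. At day 7 Npm1 stood at -0.47 ± 0.11, Nap1l1 at -0.29 ± 0.08 and Eif3a at -0.28 ± 0.08. Of 78 mitochondrial ribosomal protein genes 1 rose and 1 fell at day 7 and 1 rose and 4 fell at day 14. Mrpl27 stood at -0.74 ± 0.12 and -0.85 ± 0.12 and Mrpl10 rose by 0.35 at each day. Of the regulators, Rptor, a partner of mTOR, rose by 0.30 ± 0.09 at day 7 (adjusted p = 0.033). Of the chaperones and snoRNA host genes, Ltv1 at -0.27 and Snhg6 at -0.26 had the lowest values at day 7, and none passed.

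Most pseudogenes had few counts. Over all libraries their totals ran from 21, which is the smallest total of any gene counted, to 7186 in Rpl3-ps1, with a median of 63. As a share of the parent's counts the median was 0.438%, and 118 of the 129 had under 5%. Rpl31-ps8, identical to the Rpl31 transcript over its whole length, had 71.4%, Rpl3-ps1 20.1% and Rps16-ps2, identical to Rps16 and overlapping Adgrd1 on the opposite strand, 17.3%. None had more counts than its parent over all libraries. In single libraries Rpl3-ps1 had more than Rpl3 in all of KO day 7 and in KO day 14 replicates 1 and 2, and Rpl31-ps8 more than Rpl31 in WT day 0 replicate 2. Together the pseudogenes held 0.00436% ± 0.00037 of the counts at WT day 7 and 0.00566% ± 0.00059 at KO day 7 (SD, n = 4). This order turned on Rpl3-ps1: the other 128 held 0.00432% ± 0.00038 at WT day 7 and 0.00339% ± 0.00038 at KO day 7, and 25 of the 33 tested pseudogenes were below 0 in KO at day 7.

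From WT day 0 to day 7, 4 of the 33 tested pseudogenes rose and 1 fell, where 32.3% of all genes rose and 31.8% fell. These passed a filter on low counts, so they do not stand for all 129. Rpl10a-ps1, printed below with its parent because the 60 bases are the same, had 1.41, 1.43, 1.19 and 0.963 CPM at WT day 0 and 1.98, 2.63, 2.0 and 2.32 CPM at WT day 7, a log2 change of 0.84 ± 0.17, beside 0.83 ± 0.11 for Rpl10a.
Rpl10a: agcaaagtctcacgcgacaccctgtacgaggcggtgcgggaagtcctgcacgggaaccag
Rpl10a-ps1: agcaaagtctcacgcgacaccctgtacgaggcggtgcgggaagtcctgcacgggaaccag
Rpl18-ps1, which aligned to Rpl18 over 16 bases only, rose by 0.51 ± 0.16 beside 0.39 ± 0.10 for Rpl18. Rps10-ps1 rose by 0.50 ± 0.18, and Rps10 at 0.25 ± 0.11 did not pass (edgeR adjusted p = 0.0612). Rpl9-ps8 rose by 1.92 ± 0.49 and Rpl9 stood at 0.16 ± 0.11. The pseudogene had 2, 3, 2 and 4 counts at WT day 0 and 20, 16, 13 and 8 at WT day 7. It passed the count filter only through the growing groups. Against day 0, the only call open to Rpl9-ps8 was therefore higher, though it is counted among the 4 that rose. With the muscle score as covariate the call of Rpl9-ps8 was lost (edgeR adjusted p = 0.0602).

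Rpl19-ps3 went the other way from Rpl19. This pseudogene (chr14:49103507-49122712, minus strand) is a transcribed one in a longer transcript. It is 91.4% identical to Rpl19 over 698 aligned bases. It differs from Rpl19 at 8 of 60 positions in the stretch shown next, picked for the most differing bases.
Rpl19: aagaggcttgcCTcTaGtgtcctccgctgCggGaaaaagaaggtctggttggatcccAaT
Rpl19-ps3: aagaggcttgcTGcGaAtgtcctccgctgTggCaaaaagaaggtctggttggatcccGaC
It had 1.01, 0.797, 0.875 and 0.842 CPM at WT day 0, 0.216, 0.136, 0.124 and 0.0570 CPM at WT day 7 and 0.290, 0.377, 0.297 and 0.780 CPM at WT day 14. The day 7 libraries lay below all others of WT. The log2 change was -2.67 ± 0.41 from day 0 to day 7 and 1.66 ± 0.42 from day 7 to day 14, while Rpl19 rose by 0.40 ± 0.14 and then stood at 0.03 ± 0.14. The fall of Rpl19-ps3 from day 0 to day 14, -1.01 ± 0.38 (edgeR adjusted p = 0.0307), was lost without any 1 of WT day 0 replicates 1 and 3 and WT day 14 replicates 1, 2 and 3, with adjusted p from 0.053 to 0.09, and with the muscle score as covariate (-0.808, adjusted p = 0.152).

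At WT day 14, 2 of the 33 pseudogenes had risen from day 0 and 1 had fallen, where 28.0% of all genes rose and 26.2% fell. Rpl26-ps6 had 0.489, 0.358, 0.437 and 0.361 CPM at WT day 0, 0.592, 0.423, 0.300 and 0.190 at day 7 and 1.74, 1.24, 0.940 and 0.730 at day 14. Every day 14 library was above every earlier WT library, by 1.5 ± 0.32 on the log2 scale from day 0 (edgeR adjusted p = 0.000555), and Rpl26 stood at 0.06 ± 0.09. Between WT day 7 and day 14, Rpl26-ps6 and Rpl19-ps3 rose and Rpl10a-ps1 fell by 0.53 (16.0% of all genes rose and 14.3% fell), while Rpl10a stood at 0.24 ± 0.11. In KO against WT, Rps10-ps1 was called beside Rpl3-ps1 at day 7, 2 of 33 where 14.8% of all genes passed, with 1.89, 2.10, 1.70 and 2.24 CPM in WT and 1.32, 1.42, 1.41 and 1.19 in KO (-0.57 ± 0.18, adjusted p = 0.0422). Rps10 stood at -0.10 ± 0.11, and the difference of KO and WT in the log2 ratio of pseudogene to parent was -0.46 at day 7 (exact permutation p = 0.0286, adjusted 0.0457) and -0.11 at day 14 (exact p = 0.486). Rps10-ps1 entered this test through its call in these libraries, so the day 7 p restates that call. The edgeR call of Rps10-ps1 was lost without any 1 of the libraries compared except WT day 7 replicate 3, with adjusted p from 0.0624 to 0.121, and with the muscle score as covariate (-0.358, adjusted p = 0.403).

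Start sites were read for the TOP motif in RefSeq (GRCm38.p6), since the values above concern genes of this class. The motif searched was a C at the start followed by at least 4 C or T, on the gene's own strand. Of the 57 canonical genes with a listed start, 13 (22.8%) had it at 1 or more listed starts, against 3.01% of all 27025 genes and 0 of 69 mitochondrial ribosomal protein genes. Of 15 TOP translation genes outside the ribosome with a listed start, 3 had it. Windows of 30 bases centred on a start are shown for Rps6 and Rack1, which rose, for Rpl35a, which was lower in KO, and for Rpl3l, the muscle paralog, which has no such run; the run is in capitals, and only 1 of the 3 listed starts of Rpl35a has it. Rplp0, Rpl41, Rpl27 and Rpl10a, which also rose, have no such run at a listed start. Such a run within 10 bases before to 15 after a listed start was found in 34 of the 57 canonical genes (59.6%). The share was 34.4% over all genes and 44.9% over the mitochondrial ribosomal protein genes. Whether the listed starts are those used in this tendon was not tested, so a missing run does not show that an mRNA lacks the motif.
Rps6 (chr4:86857353-86857382, minus strand): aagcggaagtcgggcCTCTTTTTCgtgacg
Rack1 (chr11:48800345-48800374, plus strand): cggaggccgctctttCTTTTTCTCCacagg
Rpl35a (chr16:33056467-33056496, plus strand): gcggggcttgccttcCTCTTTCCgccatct
Rpl3l (chr17:24727811-24727840, plus strand): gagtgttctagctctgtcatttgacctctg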

How the data were processed

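Total RNA from plantaris tendon was sequenced in 20 libraries, 4 in each of 5 groups. The authors deposited whole-number read counts per gene for 24885 genes in 1 table. STAR, FastQC, edgeR and the mm10 build are named in the submitters' processing notes, without versions. The sources used here do not give the strand setting or how reads matching several genes were counted. Counts were tested with edgeR 4.0.16 (R 4.3.3) by the quasi-likelihood F test on a group-means model over all 20 libraries, after filterByExpr (18918 genes) and TMM scaling, with Benjamini-Hochberg adjustment over all tested genes and a threshold of 0.05. CPM use the TMM-scaled library size, and SE is the log2 change over the square root of F. The ratio of a copy to its parent was compared by a two-sided exact permutation test (70 arrangements) of log2 ratios of counts with a pseudocount of 0.5 counts. The code was tested on simulated data.

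The members and lists were chosen with earlier results of these data known. Genes were named by rule: the stalk, Rack1 and the paralogs with their partners, called pseudogenes with their parents (outside KO against WT, up to 5 in each direction), and, by smallest p in each comparison, up to 8 called canonical or paralog genes in each direction and up to 4 called genes from each list, or 2 where none passed; others are said to be chosen after their values were seen. Some genes that the rule takes are not reported here. Sequences were read from GENCODE vM21 transcripts and from RefSeq promoters (GRCm38.p6), with biopython 1.88. Alternatives were other scalings, no filter, DESeq2 1.42.0, limma-voom (limma 3.58.1), the compared groups alone, a replicate block, a muscle score (mean log2 CPM of 14 muscle fibre markers) as covariate, pseudogene counts added to parents, and leaving out each library. No library looked like a copy of another from its group, as chi-square per degree of freedom was 14.9 or more over the 30 pairs.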

Additional observations from a re-analysis of the deposited data

Results flagged for a closer look

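Single libraries stood apart from the other 3 of their group in 5 of 75 groups of values examined, by a gap over 0.829 of the group's range (Dixon's 95% critical value). Chance flags about 1 in 20 such groups. Rpl3 was 43.0 CPM in WT day 0 replicate 2, above the others of its group. Rpl29 was 25.6 CPM in KO day 7 replicate 4, where Gm8210 was lowest of that group. Rps6 was 1.63 CPM in KO day 14 replicate 3. Gm8210 was 0.0180 CPM in WT day 14 replicate 2, which is 1 count, and 2.65 CPM in KO day 14 replicate 4, the library of that group with the lowest Rpl29.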

How the results depend on the processing

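Of the values that answer a comparison, 283 of those recomputed under an alternative stayed as reported, 50 moved and 1 passed where it had not. With the muscle score as covariate, the number of tested ribosomal protein genes without -ps that were called was 12 in place of 43 (WT day 7 and day 0), 2 in place of 5 (WT day 14 and day 7), 2 in place of 7 (KO and WT at day 7), 18 in place of 29 (KO day 7 and WT day 0) and 19 in place of 29 (KO day 14 and WT day 0), and 1 in place of 2 pseudogenes was called at day 7. Fewer of all genes passed with this covariate as well. For WT day 7 and day 0, 16.2% of all genes rose and 15.0% fell, against 32.3% and 31.8% without it. For KO and WT at day 7, 4.17% rose and 1.30% fell, against 9.39% and 5.42%. Without a filter the counts of called ribosomal protein genes were 2 (WT day 14 and day 7) and 2 (KO and WT at day 14, in place of 4), and 1 pseudogene was called at day 7. A fit to the compared groups alone gave 2 (WT day 14 and day 7), 13 (KO and WT at day 7), 0 (day 14) and 4 (KO day 14 and day 7, in place of 7). At day 14 DESeq2 called 11 and limma-voom 2. Upper-quartile scaling gave 3 for KO day 14 and day 7. Leaving out 1 library gave 1 to 13 for WT day 14 and day 7, 4 to 6 for KO and WT at day 7 (1 to 2 pseudogenes), 0 to 41 at day 14 (1 to 2 pseudogenes), 1 to 9 for KO day 14 and day 7 and 19 to 26 for KO day 14 and WT day 0. The difference in the log2 ratio of Gm8210 to Rpl29 at day 14 was 2.31 with a pseudocount of 5 counts and 3.13 with 0.5. The difference of Rpl3l in KO at day 14 was 0.44, and -0.0412 to 1.03 on leaving out 1 library, lowest without KO day 14 replicate 4. With library totals alone, added after seeing the data, the canonical medians were 0.46, -0.24 and -0.35 for WT day 7 and day 0, WT day 14 and day 7, and KO and WT at day 7. The cause of these shifts was not tested. Counts in this section with no share of all genes beside them do not show a shift particular to ribosomal protein genes. After leaving out a library the exact test cannot go below 0.0571. Of single genes, 96 values no longer passed and 657 stayed.

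Replicate numbers did not pair the libraries: 14 of 40 same-numbered pairs had a correlation over 0.1, with a median of 0.0474, and 7 of 20 libraries correlated best with their own number. With a replicate block, 46, 40, 4, 6, 4 and 5 genes without -ps were called in the comparisons of WT day 7 and day 0, WT day 14 and day 0, WT day 14 and day 7, KO and WT at day 7, at day 14, and KO day 14 and day 7, and 30 and 26 for KO day 7 and KO day 14 against WT day 0. The shares of all genes with this block are not given here, so these counts describe the members only. Counts of few reads limit Rps6, Rpl9-ps8 and most pseudogenes.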
